A study of Sus scrofa with 48 samples.

Results

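The troponin complex of striated muscle was followed in the gluteus medius muscle (GM), the liver and the kidney of F2 pigs. The genes listed were TNNT1, TNNI1 and TNNC1 of slow fibres and TNNT3 and TNNC2 of fast fibres. Members were the array probes assigned to these genes by their reference transcript. Of 43603 probes on the array, 4 were members, and 4 of the 5 genes thus had a probe, out of 1862 gene symbols found on the array. The probes were 1 each for TNNT1 (probe A_72_P232362), TNNI1 (A_72_P077691), TNNT3 (A_72_P015556) and TNNC2 (A_72_P165811). A gene symbol was found for 2628 probes, and none of these was TNNC1, which was not analysed here. In the order of genes of the pig assembly Sscrofa11.1, TNNT1 lies on chromosome 6 beside TNNI3, the cardiac form of troponin I, while TNNI1 lies on chromosome 10, TNNT3 on chromosome 2 and TNNC2 on chromosome 17.

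Troponin is the calcium switch of the thin filament. Troponin C binds calcium, troponin I holds back the interaction of actin and myosin until calcium is bound, and troponin T anchors the complex to tropomyosin. Slow and fast fibres use different genes for these subunits, so slow and fast troponins are common markers of fibre type. TNNT1 and TNNI1 are the slow troponins T and I, TNNT3 is the fast troponin T and TNNC2 is the fast troponin C. TNNC1, the slow troponin C, is shared with the heart.

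The samples came from 16 F2 pigs, 8 of the control line (F2 C) and 8 of the experimental line (F2 E), with 4 barrows and 4 females in each line. All were Swiss Large White pigs. The paternal grandsires of F2 E pigs had been fed a standard diet enriched in methionine, choline, betaine, vitamin B6, vitamin B12 and folate, and those of F2 C pigs the standard diet alone. Their sires and the F2 pigs themselves received standard diets only, and all were slaughtered at market weight, at an age that the labels do not give. Pigs of one line can share sires and litters, which the labels do not give either, so the p-values measure the spread between pigs that may be related. Each pig gave 1 single-colour array per tissue, 48 in all. Values are log2 signals after quantile normalization, which gives every array the same distribution of values by rank. A difference of 1 on this scale is a doubling.

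Spots well above background numbered 18948 to 28754 on GM arrays, 24128 to 30814 on liver arrays and 25071 to 36804 on kidney arrays. In GM their number ran from 18948 to 25728 in F2 E and from 23491 to 28754 in F2 C, and the median background signal from 26 to 28 in F2 E and from 14 to 24 in F2 C. Each array slide carried 4 arrays of a single tissue, and in GM and kidney a single line as well, so line and slide cannot be told apart there. Of the probes for marker genes, 18 of 19 for skeletal muscle were higher on each GM array than on any array of the other tissues, as were 9 of 9 for liver on the liver arrays and 5 of 6 for kidney on the kidney arrays.

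All of the 4 troponin probes were higher in GM than in liver and kidney. For TNNC2, TNNT3 and TNNI1 the liver signal was at or near background, so that their differences from liver are given as bounds, and the size of a difference is not compared between probes. These contrasts and bounds were taken after quantile normalization over all 48 arrays, with limma and the pig as a random block. The bounds hold for that normalization alone. Adjusted p was below the threshold of 0.05 for 70.7% of the 34501 probes between GM and liver and for 75.1% between GM and kidney, and 34.9% and 34.8% of all probes were called higher in GM.

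TNNT3, which anchors troponin to tropomyosin in fast fibres, ranged from 18.91 to 19.14 in GM with a median of 19.04. In liver it ranged from 5.38 to 6.12 with a median of 5.74, and in kidney from 5.80 to 6.46 with a median of 5.95. Its signal was well above background on 16 of 16 GM arrays, 2 of 16 liver arrays and 15 of 16 kidney arrays. GM was therefore at least 9576-fold higher than liver, where the measured means were 19.03 and 5.79 (limma adjusted p = 2.99e-67). The measured means in GM and kidney differed by 13.02 (SE 0.0635, limma adjusted p = 6.61e-67), with the TNNT3 signal at the scanner's upper limit on 2 of the 16 GM arrays.

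TNNC2, the calcium sensor of fast fibres, ranged from 18.85 to 19.14 in GM with a median of 19.11. It ranged from 4.87 to 5.42 in liver, where no array was well above background, and from 5.22 to 6.33 in kidney, where 3 of 16 were. GM was therefore at least 13354-fold higher than liver, where the measured means were 19.07 and 5.13 (limma adjusted p = 3.51e-64). It was at least 11169-fold higher than kidney, where the measured mean was 5.57 (limma adjusted p = 1.07e-63). TNNC2 was at the scanner's upper limit on 5 of the 16 GM arrays.

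TNNT1, the slow troponin T, ranged from 15.38 to 19.14 in GM with a median of 17.84. It was well above background on all 48 arrays, with a range of 7.50 to 8.90 and a median of 8.20 in liver and a range of 7.92 to 9.46 and a median of 8.55 in kidney. GM exceeded liver by 9.52 (SE 0.229), which is 733-fold, and kidney by 9.14 (SE 0.229), which is 563-fold (limma adjusted p = 3.54e-37 and 2.52e-36). TNNI1, the slow troponin I, ranged from 11.34 to 16.71 in GM with a median of 14.50. Its liver values lay between 5.40 and 5.88 and its kidney values between 6.32 and 7.03. No liver array but all 16 kidney arrays were well above background. GM was at least 390-fold higher than liver, where the measured means were 14.24 and 5.60, and 187-fold higher than kidney (limma adjusted p = 9.95e-32 and 3.58e-29).

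**Figure D1:**
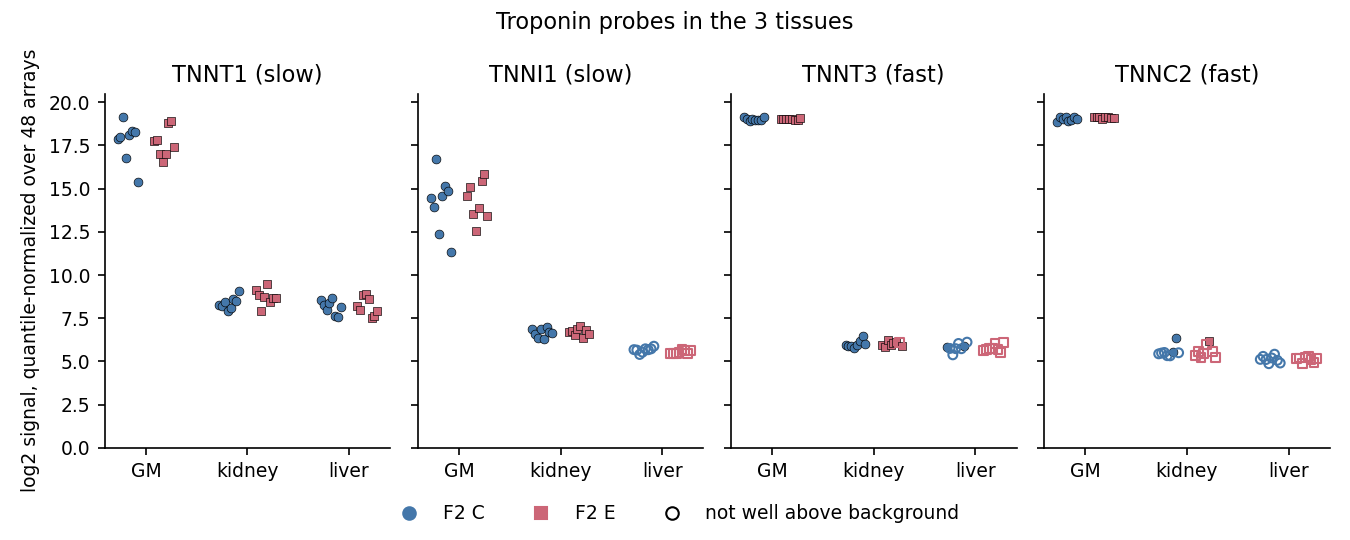
Log2 signal, quantile-normalized over 48 arrays, of the 4 troponin probes by tissue and line, 1 point per array, with open points where the spot was not well above background. GM arrays lie at 11.34 or above for each probe and liver and kidney arrays at 9.46 or below. The fast probes in GM, close to the scanner's upper limit, lie between 18.85 and 19.14.

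Other scalings changed none of these calls. For TNNT1, the member measured above background in every tissue, the difference between GM and liver ran from 9.17 to 10.51 under the other alternatives. The sizes for the other members, and with them the fold bounds, depended on the processing. Measured GM minus liver ran from 7.52 to 11.73 for TNNI1, from 12.22 to 16.21 for TNNT3 and from 12.55 to 17.90 for TNNC2. For TNNC2, GM minus kidney ran from 12.34 to 17.06. Requiring a signal well above background on all arrays left TNNT1 as the sole testable member.

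Between liver and kidney, 70% of all probes were called, and 12763 of 34501 were called higher in kidney. Of the 4 troponin probes, 3 were called higher in kidney. TNNI1 was higher in kidney in 16 of 16 pigs (measured means 5.60 in liver and 6.69 in kidney, limma adjusted p = 0.00052). After quantile normalization it was at least 2.08-fold higher, a bound that holds for that normalization alone. Under the other alternatives, measured liver minus kidney for TNNI1 ran from -3.01 to -0.67, so its size depended on the processing. TNNC2 was higher in kidney in 16 of 16 pigs after quantile normalization (measured means 5.13 in liver and 5.57 in kidney, limma adjusted p = 4.12e-06). TNNT3 was higher there in 14 of 16 pigs (measured means 5.79 and 6.01, limma adjusted p = 0.00204). Both were near background in liver. TNNC2 was well above background on only 3 of 16 kidney arrays, so no fold or bound is given for it here. When the median signal was scaled to the 75th percentile instead, both differences turned their sign. Liver minus kidney was then 0.43 for TNNC2 (limma adjusted p = 0.056) and 0.37 for TNNT3 (limma adjusted p = 0.0391). This setting moved the median difference of all probes from -0.02 to 0.38. TNNT1 was higher in kidney in 10 of 16 pigs, by 0.38 (SE 0.229, limma adjusted p = 0.135), and did not pass.

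Within GM, the slow troponins varied widely from pig to pig, while the variation of the fast ones was limited by their brightness and could not be measured in full. TNNT1 had its lowest value at 15.01, its median at 17.76 and its highest at 19.15 over the 16 pigs, a range of 17.7-fold (SD 1.09). Of all probes present in GM, 0.905% had a larger SD, and the median SD was 0.297. TNNI1 had its lowest value at 10.66, its median at 14.03 and its highest at 16.45, a range of 55.6-fold (SD 1.49), and 0.32% of probes present had a larger SD. In bulk muscle, fewer cells of a type and less RNA per cell cannot be told apart.

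The values of the fast probes lay within 1.16-fold (TNNT3, 18.93 to 19.15, SD 0.0605) and 1.21-fold (TNNC2, 18.87 to 19.15, SD 0.0882). Each took 6 distinct values on the 16 arrays. Quantile normalization assigns values by rank, and the TNNT3 spot held rank 1 to 6 and the TNNC2 spot rank 1 to 9 by brightness on each array, so their values could move only among the steps of the brightest spots. TNNT1 held ranks from 1 to 626 and TNNI1 from 260 to 5348. When the median signal was scaled to each array's 75th percentile instead, the range was 2.29-fold for TNNT3 and 2.33-fold for TNNC2 against 13.9-fold for TNNT1 and 49.9-fold for TNNI1. Before any normalization, the TNNT3 and TNNC2 signals ranged over only 0.46 and 0.42 on the log2 scale, so these scaled ranges also hold the variation of the arrays' 75th percentile.

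The fast probes were also close to the scanner's upper limit. Before normalization, TNNT3 was at the saturation value given for its array, within 0.01 on the log2 scale, on 2 of 16 GM arrays and TNNC2 on 5, although the software had marked none of these spots as saturated. Both probes lay within 0.5 of that value on 16 of 16 arrays. TNNT1 did so on 3 arrays without reaching the limit, and the closest TNNI1 signal differed from it by -2.48. A signal at the limit is only a lower bound, so variation of the fast troponins upward could not be measured on those arrays.

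**Figure D2:**
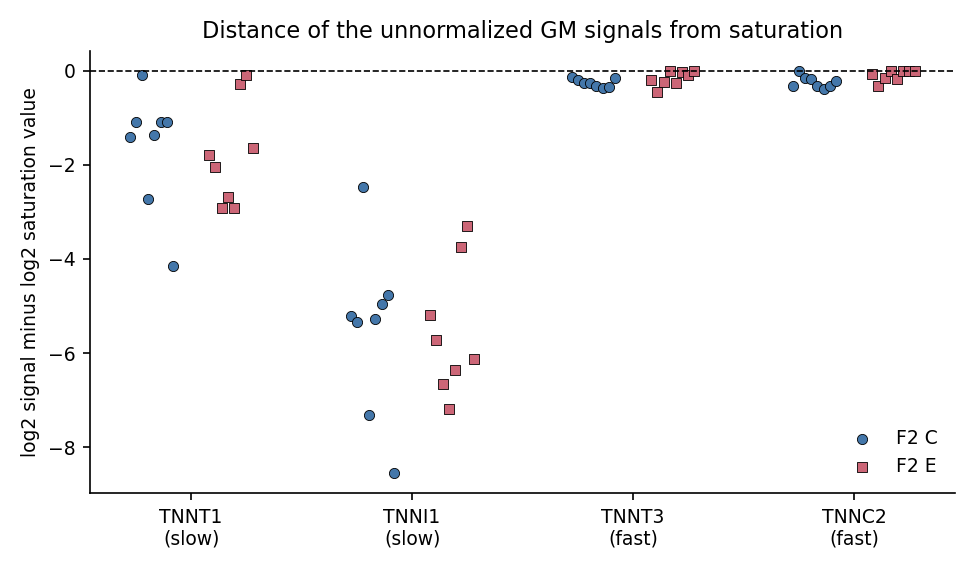
Log2 signal before normalization minus the log2 saturation value of the same array, for the 16 GM arrays by probe and line, with the limit as a dashed line at 0. The fast troponins TNNT3 and TNNC2 lie between -0.45 and 0, while TNNT1 extends down to -4.14 and TNNI1 to -8.55.

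TNNT1 and TNNI1 varied together over the pigs. The pig with the highest TNNT1, F2 C replicate 3, also had the highest TNNI1 (19.15 and 16.45), and the pig with the lowest TNNT1, F2 C replicate 8, also had the lowest TNNI1 (15.01 and 10.66). F2 E replicates 7 and 6 came next at the upper end, with 18.93 and 18.76 for TNNT1 and 15.55 and 15.10 for TNNI1. At the lower end, F2 E replicate 4 had 16.31 and 11.92 and F2 C replicate 4 had 16.54 and 11.76. Both extremes were thus F2 C females.

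Over the 16 GM arrays TNNT1 and TNNI1 had a Pearson r of 0.953 (permutation p = 1e-05, the smallest that the resamples can give, adjusted p = 6e-05 over 6 pairs) and a Spearman rho of 0.926 (permutation p = 1e-05). Of 25280 other probes present in GM, 4 had a higher r with TNNT1, and the median r of all probes with it was 0.007. Without the 2 arrays farthest from the median of TNNT1, r was 0.919. It was 0.967 in F2 C, 0.941 in F2 E and 0.974 after removing the mean of each slide, and between 0.919 and 0.974 under all other settings tried. Correlations of the 4 troponin probes with the number of spots well above background, the median signal, the median background and the number of marked spots of an array lay between -0.17 and 0.27.

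The relation of the slow to the fast forms depended on the normalization. With quantile normalization, TNNT3 was lower where the slow forms were higher: r was -0.73 with TNNT1 (rho -0.77, permutation p = 0.00116, adjusted p = 0.00232 over 6 pairs) and -0.74 with TNNI1 (rho -0.75, permutation p = 0.00114, adjusted p = 0.00232), but scaling the median signal to the 75th percentile gave -0.07 and -0.08, the processed signal scaled in the same way 0.04 and -0.002, and signals without normalization 0.09 and -0.005. On the quantile scale the whole range of TNNT3 was 0.22. On the array with the highest TNNT1, the TNNT1 spot was the brightest of all and TNNT3 had its lowest value of the 16 arrays, 18.93. Without the 2 arrays farthest from the median, r was -0.70 with TNNT1 (adjusted permutation p = 0.0163) and -0.53 with TNNI1 (adjusted permutation p = 0.104). Within F2 C and F2 E, r of TNNT1 and TNNT3 was -0.73 and -0.77 (adjusted p = 0.0679 and 0.0536 in exact permutation tests over 8 arrays each).

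The pair of fast forms behaved in the opposite way. TNNT3 and TNNC2 had r = -0.01 after quantile normalization (adjusted permutation p = 0.978) but 0.960 when the median signal was scaled to the 75th percentile and 0.958 with the processed signal (adjusted permutation p = 3e-05 in each), and 0.805 without normalization (adjusted permutation p = 0.0006). Before normalization TNNT3 ranged over 0.46 and TNNC2 over 0.42 on the log2 scale. With the scaled median signal they ranged over 1.20 and 1.22. The scaling subtracts the same array value from both probes, and its part in these r was not tested. TNNC2 had r = -0.12 with TNNT1 and -0.09 with TNNI1 (adjusted permutation p = 0.896 in each), and values between -0.05 and 0.15 for these pairs under the scalings to the 75th percentile and without normalization.

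**Figure D3:**
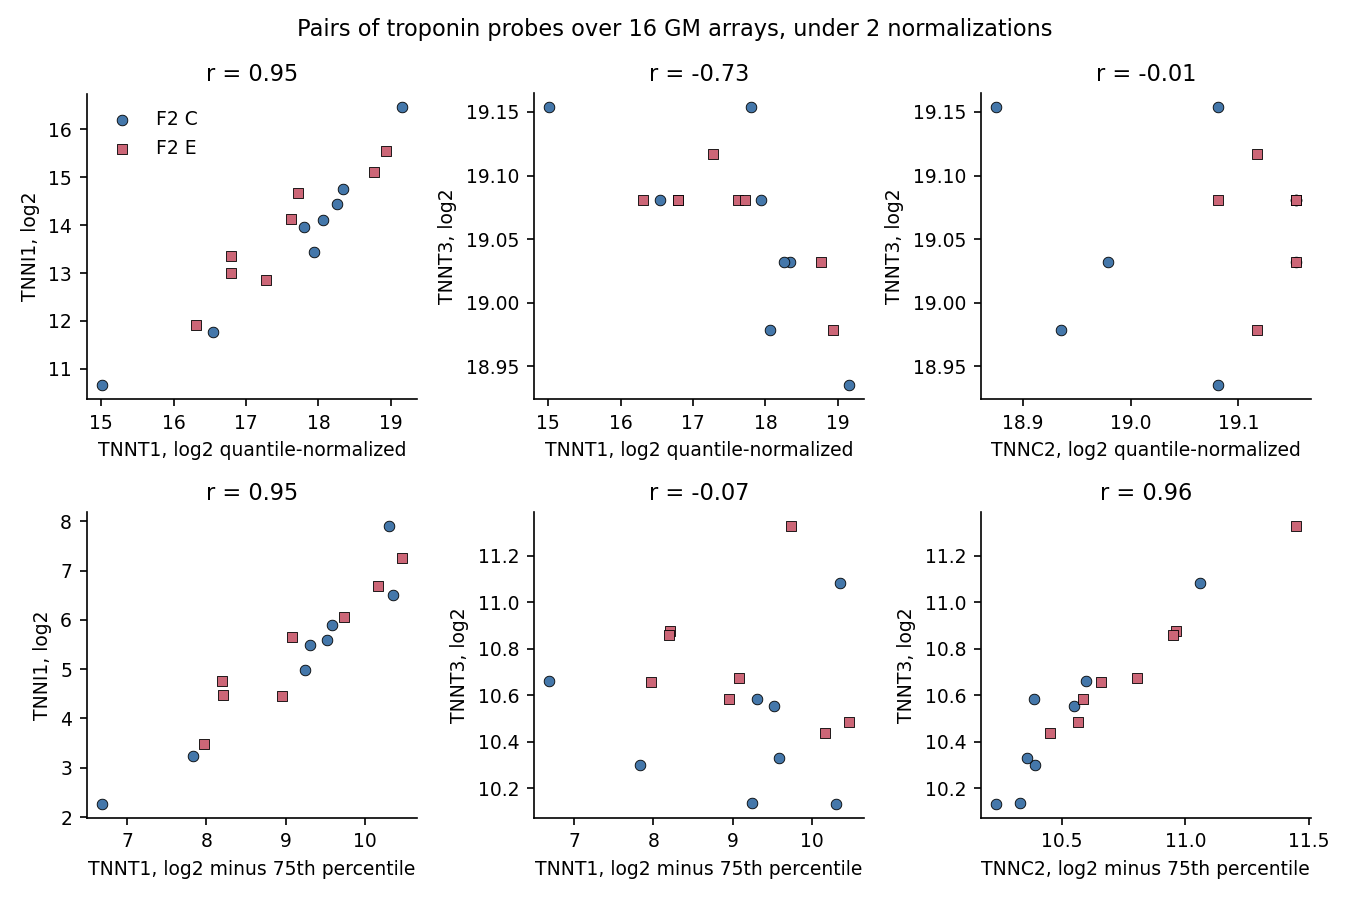
Pairs of troponin probes over the 16 GM arrays, 1 point per pig, with log2 quantile-normalized signals in the upper row and log2 signals minus the array's 75th percentile in the lower row, and Pearson r above each panel. TNNT1 and TNNI1 lie on a line in both rows (0.95), whereas the inverse relation of TNNT1 and TNNT3 (-0.73 to -0.07) and the missing relation of TNNT3 and TNNC2 (-0.01 to 0.96) do not hold in both.

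The genes most like the slow troponins were other slow fibre genes. Among 2012 probes with a gene name and present in GM, troponins left out, the 5 with the highest r with TNNT1 over 16 arrays were MYL2, the slow regulatory myosin light chain (0.983), MYH7, the slow myosin heavy chain (0.964 and 0.937 for 2 probes), PLN, phospholamban, the brake on the calcium pump of slow and cardiac muscle (0.948), and MYOZ2, a Z-disc protein of slow fibres (0.947). For TNNI1 they were MYH7 (0.987 and 0.965), TPM3, the slow tropomyosin (0.973), MYL2 (0.937) and PLN (0.925). Each of these 10 values was 0.90 or higher with either signal scaled to the 75th percentile as well.

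For the fast troponins, the probes with the highest r on the quantile scale did not keep it under the other scaling. Each fast probe took only 6 distinct values on the quantile scale, and partners were not sought on the other scaling. Whether the fast troponins have stable partners was therefore not tested. TNNT3 had its highest r with FAM209B (0.722), SLC26A6 (0.687), ARSA (0.681), CDKN3 (0.669) and NANOS1 (0.657), and the same 5 had r between 0.16 and 0.56 with the median signal scaled to the 75th percentile. TNNC2 had its highest r with MTX1 (0.758), DDX39B (0.745), RPS12 (0.741), CD34 (0.717) and APOA1 (0.673), which had r between 0.13 and 0.53. The lowest r with the mean profile of the slow forms belonged to CHEK2 (-0.74), SRSF2 (-0.71), SLC26A6 (-0.70), GPX2 (-0.70) and ACBD3 (-0.70), and with that of the fast forms to IDH3A (-0.75), MARCH6 (-0.69), KLF11 (-0.69), PLN (-0.67) and CASP8 (-0.67). Both mean profiles were taken on the quantile scale alone. The 5 lowest r with TNNT3 itself, -0.80 to -0.74 there, lay between -0.33 and -0.05 with the median signal scaled to the 75th percentile. Those with TNNC2, -0.80 to -0.71, lay between 0.12 and 0.53.

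Other troponins present on the array were TNNI2, the fast troponin I (1 probe), and TNNI3, the cardiac troponin I (4 probes). TNNI2 had r = -0.29 with TNNT1 and -0.45 with TNNI1 on the quantile scale. Scaled to the 75th percentile, these were -0.15 and -0.24 for the median signal and -0.04 and -0.13 for the processed signal. After quantile normalization its r was 0.04 with TNNT3 and 0.35 with TNNC2. When the median signal was scaled to the 75th percentile, which subtracts the same array value from each probe, these were 0.89 and 0.88. The TNNI3 probes went with the slow forms in GM. For 3 of them r was between 0.84 and 0.90 with TNNT1 and TNNI1, and the remaining probe, which was well above background on 8 of 16 GM arrays, had 0.54 and 0.64.

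The slow fibre list held 24 genes besides the members, of which 13 had a probe (22 probes), namely ATP2A2, CA3, CD36, FHL1, LDHB, MYBPH, MYH7, MYL2, MYOZ2, PDK4, PLN, PPARGC1A and TPM3. Of 21 probes with a value on every GM array, 16 had r above 0 with TNNT1 (median 0.39, against 51.2% of all probes and a median of 0.007). The 3 probes of LDHB, the lactate dehydrogenase subunit of oxidative fibres, had r between 0.77 and 0.88. The probes of TPM3 disagreed, with 0.93 for one and 0.14 and 0.12 for the others. Negative values belonged to MYBPH (-0.58), to PPARGC1A, a regulator of mitochondrial genes (-0.40), and to 3 probes of PDK4, which holds back glucose oxidation (-0.24 to -0.39). Against liver, 15 of the 22 probes were called higher in GM and 7 lower (median difference 3.10, against -0.01 over all probes), with LDHB, ATP2A2, PPARGC1A and 2 probes of TPM3 on the lower side.

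The fast fibre list held 25 genes, of which 12 had a probe (23 probes), namely AMPD1, CKM, ENO3, MYH1, MYH2, MYH4, MYL1, MYLPF, MYOZ1, MYOZ3, PFKM and TPM1. All 23 were called higher in GM than in liver and in kidney (median difference 12.24 and 12.23), against 34.9% and 34.8% of all probes. With TNNT1, 5 of 23 had r above 0 (median -0.17) after quantile normalization, against 51.2% of all probes. MYH2, the IIa myosin heavy chain, was at the upper end (0.55). This count depended on the normalization. With the median signal scaled to the 75th percentile, 10 of 23 were above 0 (median -0.06), against 57.9% of all probes. With the processed signal scaled in the same way, 12 of 23 were (median 0.01), against 51.7%. With TNNT3, 17 of 23 had r above 0 (median 0.14) after quantile normalization, against 47.6% of all probes. When the median signal was scaled to the 75th percentile, 20 of 23 did (median 0.756), against 63.1% of all probes with a median of 0.192. The part of the subtracted array value in these r was not tested.

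Of the thin filament list, 6 of 17 genes had a probe (CFL2, TNNI2, TNNI3, TPM1, TPM2 and TPM3; 18 probes), 12 of 18 probes had r above 0 with TNNT1 (median 0.17), and 12 were called higher and 2 lower in GM than in liver. Of the excitation and calcium list, 7 of 28 genes had a probe (ATP2A2, CACNG1, NFATC1, PLN, PPP3CA, RYR1 and SLN; 9 probes) and 2 of 9 had r above 0 with TNNT1 (median -0.31), namely PLN and ATP2A2. RYR1, the calcium release channel of the sarcoplasmic reticulum, had -0.48, and SLN, sarcolipin, -0.31 and -0.04. Of all probes, 51.2% had r above 0 with TNNT1 and 34.9% were called higher in GM than in liver.

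**Figure D4:**
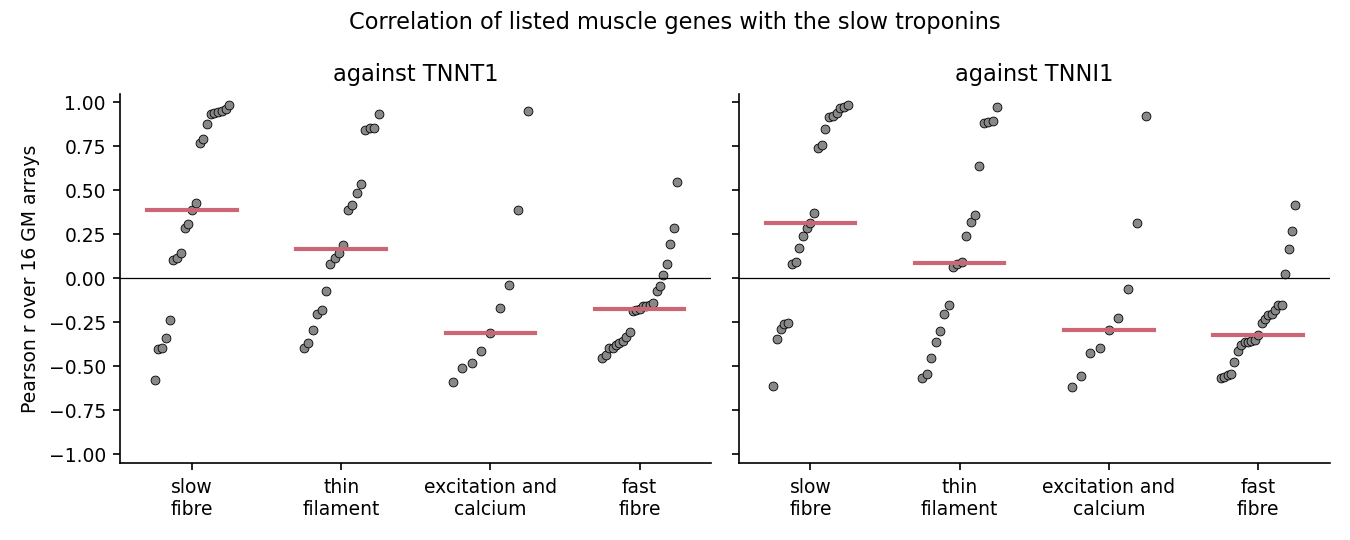
Pearson r over the 16 GM arrays of each probe of 4 gene lists with TNNT1 and with TNNI1, after quantile normalization, 1 point per probe, with the median of each list as a bar. Slow fibre probes range from -0.58 to 0.98 with TNNT1 and fast fibre probes from -0.45 to 0.55.

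The feeding experiment asked whether F2 pigs of the lines differ, and the troponin values of the lines overlapped in every tissue. Between F2 E and F2 C, none of the members was called in GM (4 tested), in liver (1 tested) or in kidney (3 tested), where 0.757%, 0.0971% and 0.0149% of all probes were called, and none reached an unadjusted p of 0.05. In GM, TNNT1 ranged from 15.01 to 19.15 with a median of 18.004 in F2 C and from 16.31 to 18.93 with a median of 17.45 in F2 E, so that the values of F2 E lay inside those of F2 C. The means were 17.64 ± 1.29 (SD, n = 8) and 17.53 ± 0.942 (SD, n = 8), and F2 E minus F2 C was -0.11 (SE 0.496, limma adjusted p = 0.935; exact permutation p = 0.851), with a 95% interval of -1.17 to 0.95. TNNI1 ranged from 10.66 to 16.45 with a median of 14.03 in F2 C and from 11.92 to 15.55 with a median of 13.73 in F2 E. Its means were 13.69 ± 1.79 and 13.82 ± 1.25 (SD, n = 8 each), a difference of 0.13 (SE 0.676, limma adjusted p = 0.947; exact permutation p = 0.872) with a 95% interval of -1.32 to 1.58. These intervals allow differences of more than 1 on the log2 scale in either direction, and leaving out single pigs moved the difference between -0.49 and 0.10 for TNNT1 and between -0.31 and 0.52 for TNNI1, at either end by leaving out F2 C replicate 8 or F2 C replicate 3.

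**Figure D5:**
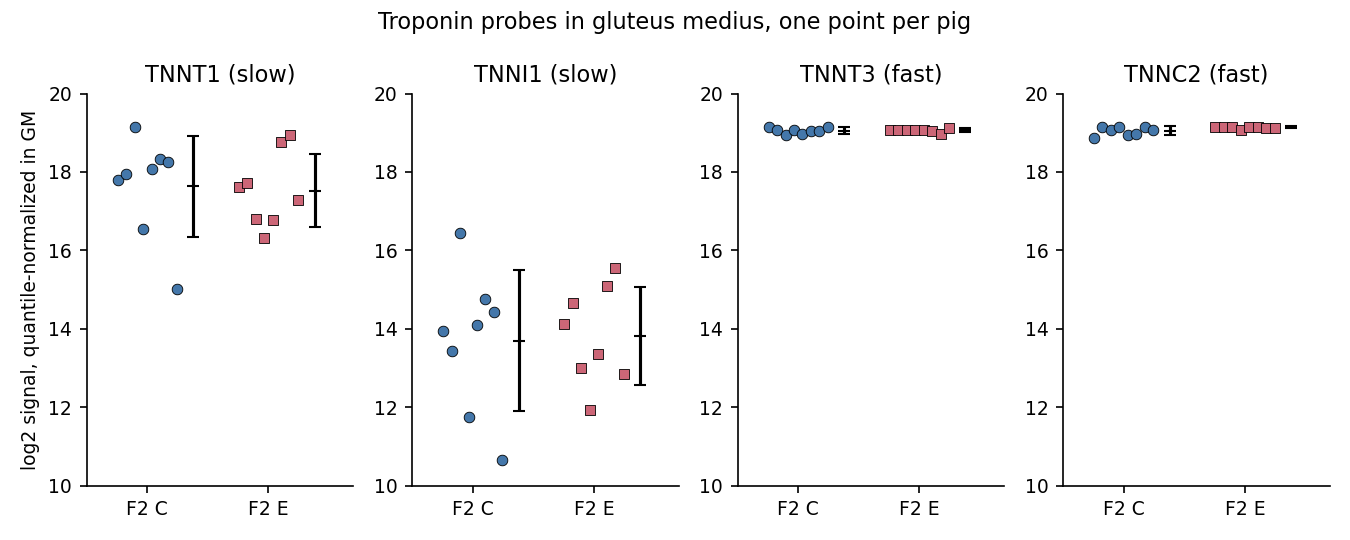
Log2 signals in GM, quantile-normalized within the tissue, by line for each probe, 1 point per pig, with the mean and SD of the 8 pigs as bars. The values of F2 E lie inside the range of F2 C for TNNT1 and TNNI1, and both fast probes stay between 18.87 and 19.15 in both lines.

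For the fast forms in GM, TNNT3 had means of 19.06 ± 0.0775 in F2 C and 19.07 ± 0.0422 in F2 E, with a difference of 0.01 (SE 0.0724, limma adjusted p = 0.957). TNNC2 had means of 19.05 ± 0.109 and 19.14 ± 0.0275, with a difference of 0.08 (SE 0.0755, limma adjusted p = 0.602; exact permutation p = 0.076, 0.448 adjusted over 8 tests). TNNC2 was at the saturation value on 4 F2 E arrays and 1 F2 C array, and the part of saturation in this difference and in the smaller spread of F2 E was not tested. On the quantile scale both fast probes could move only among the steps of the brightest spots, which also limits these differences and their SE. Under the other alternatives F2 E minus F2 C ran from 0.004 to 0.30 for TNNT3 and from 0.07 to 0.36 for TNNC2, and neither was called. In liver, TNNT1 ranged from 7.73 to 8.82 in F2 C and from 7.67 to 9.05 in F2 E, and differed by 0.05 (SE 0.214, limma adjusted p = 0.972). Within the 2 liver slides that carried both lines, with 2 pigs of each line, the difference was -0.09 in each. In kidney, TNNT1 had a median of 8.94 in F2 C and 9.30 in F2 E, with overlapping values (8.49 to 9.68 and 8.51 to 10.07) and a difference of 0.36 (SE 0.201, limma adjusted p = 1.00; exact permutation p = 0.112, 0.448 adjusted over 8 tests). TNNI1 and TNNT3 differed by 0.06 and 0.003 in kidney.

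The difference between the lines was compared between tissues for probes above background in both. For TNNT1 it differed by -0.13 between GM and liver (SE 0.457), by -0.43 between GM and kidney and by -0.30 between liver and kidney, and for TNNI1 and TNNT3 by 0.08 and 0.003 between GM and kidney. None was called (limma adjusted p from 0.995 to 1.00), against 0.119%, 0.0493% and 0.0203% of all probes for these tissue pairs. By the number series of the pig labels, TNNT1 in GM was higher in F2 E by 0.40 in the lower series and lower by 0.63 in the upper one.

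Barrows and females overlapped as well. In GM, TNNT1 ranged from 16.79 to 18.93 in barrows and from 15.01 to 19.15 in females, and TNNI1 from 13.35 to 15.55 and from 10.66 to 16.45. With line in the fit, barrows exceeded females by 0.90 for TNNT1 (SE 0.461, limma adjusted p = 0.999) and by 1.08 for TNNI1 (SE 0.645, limma adjusted p = 0.999), and neither passed. The difference was -0.02 for TNNT3 and -0.06 for TNNC2. Of all probes, 0.121% were called between the sexes, and 0% of 25594 for the dependence of line on sex, where 892 had an unadjusted p below 0.05 by limma.

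The gene lists gave the same count between the lines in GM. No probe of the slow fibre, fast fibre, thin filament or excitation and calcium lists was called between F2 E and F2 C or between barrows and females. Of all probes, 0.757% and 0.121% were called in these comparisons. The median difference between the lines was -0.08, -0.04, -0.20 and 0.06 for these lists, against -0.02 over all probes. Marker genes of fat cells, which marbled muscle also holds, had a summed signal of 40870 to 126539 in F2 E and 44363 to 81029 in F2 C over 6 probes, and their part in the troponin values was not tested.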

How the data were processed

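Total RNA of 48 samples was labelled with Cy3 and hybridized to single-colour Agilent porcine arrays, which the authors scanned and read with Feature Extraction (10.5.1.1 per the file headers). The deposited files hold a median intensity per spot with its background, a background-subtracted processed intensity and flags. The authors' tables hold log2 signals per array, used as an alternative, and their own ratios and p-values, which were not used. Here gMedianSignal intensities were quantile-normalized on the log2 scale within a tissue, or over 48 arrays for contrasts of tissues. Spots marked as outliers were then set to missing, control spots were left out and spots of a probe were averaged. A probe was present if, on 50% or more of a group's arrays, its signal was above 25 and its spot well above background. Differences were tested with limma 3.58.1 (R 4.3.3), with Benjamini-Hochberg adjustment over all probes and calls below 0.05, two-sided. For tissue contrasts the pig was a random block (correlation 0.03). Single probes were also tested over all 6435 ways to part the pigs into 8 and 8, and correlations by 100000 permutations, or by all 40320 pairings for 8 arrays (scipy 1.17.1), two-sided. A fold over a tissue where no array, or few arrays, had signal above background is a bound. For it, each array gave the higher of the probe's own value and the array's lowest signal well above background. The number of arrays limits the precision. The fits were tested on simulated data.

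All member probes were described. From the lists, genes with a called probe were named, and for likeness the 5 gene-named probes with the highest r for each member, and the 5 with the lowest r for the mean slow and fast profiles. Members and gene lists were chosen with earlier results of these data known. Replicate numbers name different pigs in both lines. Probe sequences were not used here.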

Additional observations from a re-analysis of the deposited data

Results flagged for a closer look

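One value lay far from its group. TNNC2 in the kidney of F2 C replicate 7 was 6.60, against 5.54 for the next highest and 5.23 for the lowest F2 C kidney. The gap was 0.776 of the group's range, above Dixon's 95% critical value for 8 samples. The array was 1 of 3 kidney arrays with TNNC2 well above background, and TNNT3 was highest there as well (6.77). Chance gives about 1 such value in 20 groups, and 24 groups were tested.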

How the results depend on the processing

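The count of 0 called troponin probes between the lines, between sexes and between tissues in their line difference was the same under every alternative and with each pig left out (0 to 0). The calls between tissues were 4, 4 and 3 with each pig left out (4 to 4, 4 to 4 and 3 to 3) and under the other alternatives, except that liver and kidney had 2 with the median signal scaled to the 75th percentile, and that a signal well above background on all arrays, which left TNNT1 alone to test, gave 1 for GM and liver, 1 for GM and kidney and 0 for liver and kidney. In the former, liver minus kidney reversed for TNNT3 (0.37, adjusted p = 0.0391, still called) and TNNC2 (0.43, adjusted p = 0.056, no longer called). The number of related pairs in GM, 3 (3 to 3 with each pig left out), was 1 in F2 C alone and 1 in F2 E alone, where the exact test has 8 arrays. It also rested on the normalization. The r of TNNT1 and TNNT3 moved to near 0, with 0.042 (processed signal, 75th percentile) and 0.0891 (no normalization; adjusted permutation p = 0.994 and 0.889). The r of TNNT3 and TNNC2, which was near 0, rose to 0.958, 0.960 and 0.805. The cause was not tested. With the replicate block, which paired pigs by label number, 0 troponin probes were called between the lines; same-numbered pigs deviated together in 2 of 8 pairs in GM (r -0.158 to 0.330), so the numbers were not treated as pairs. Probes called in GM over the whole array ran from 6 (slide as a random block) to 515 (number series) against 194, in liver from 7 to 122 against 28 and in kidney from 0 to 10 against 5. Background correction by normexp used the median signal, chosen after seeing the data, because the planned mean signal was not used here; the unnormalized signals were also added then. Saturation limits the fast troponins in GM, and background limits all members but TNNT1 in liver and also TNNC2 in kidney.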

Other observations

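The cardiac troponin I gene TNNI3, whose neighbour on chromosome 6 is TNNT1, was higher in kidney than in muscle. For 3 of its 4 probes GM minus kidney was -1.75, -1.79 and -1.21 (limma adjusted p = 5.71e-08, 1.15e-07 and 1.68e-05), and liver minus kidney was -2.04, -2.21, -1.42 and -0.34 for the 4 probes (limma adjusted p from 1.02e-09 to 0.0131), with kidney higher in 16, 16, 16 and 14 of 16 pigs. None of the 4 differed between GM and liver (adjusted p from 0.182 to 0.453). These probes were not members and were looked at after their values were seen. TNNI2, the fast troponin I, was higher in GM than in liver by 12.03 and than in kidney by 11.97.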
